A study of Mus musculus with 16 samples.

Results

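The genes described here make and regulate cholesterol: Srebf2, Insig1, Hmgcs1, Idi1, Fdps, Sqle, Lss and Cyp51. They were taken as the rows of the gene count matrix that carry those 8 symbols, and all 8 were found among 57186 gene rows and among the 25408 genes tested. Across mouse kidneys, Cyp51 was lower in diabetes, at 0.71-fold when both treatments were averaged, a call close to the threshold (edgeR adjusted p = 0.0437). The call was kept in 3 of 16 fits that left out 1 library. It was lost with the date in the sample name as a covariate. Idi1 was also lower in untreated diabetic kidneys but did not pass the test. Hmgcs1, Fdps, Sqle, Lss, Srebf2 and Insig1 passed the test in no comparison. Among these genes, pairwise log2 fold changes reached 0.29 for Sqle (diabetes under B12) and −0.32 for Insig1 (B12 in diabetic kidneys). None of the 8 passed the test for vitamin B12.

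Kidney RNA came from 16 male C57BL/6J mice that all carried Elmo1H/H, a hypermorphic genotype of the engulfment and motility gene Elmo1. Non-diabetic mice were Ins2+/+ and diabetic mice carried Ins2Akita/+ (written Ins2A/+ in the labels), a point mutation of the insulin gene Ins2 that leads to loss of pancreatic beta cells. Each genotype was left untreated (ND_C and D_C) or drank water with B12, at a daily dose of 10 mg/kg, from 8 weeks of age (ND_B12 and D_B12), with 4 mice and 4 libraries in each group. The labels put the treatment at 16 weeks. The methods put it at 8 weeks, with the kidneys taken from fasted mice at 16 weeks of age. Because Elmo1H/H is in every group and Ins2Akita is a point mutation, read counts of these genes offered no check of the labels.

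Libraries, each from 1 mouse, held between 65271308 and 91771136 counts, and the log2 CPM (counts scaled to the size of the library) of any pair of libraries correlated with r between 0.969 and 0.994. The proximal tubule marker Slc34a1 ran from 336801 to 456428 normalized counts, as whole kidney should show, and the adrenal genes Cyp11b1 and Cyp11b2 were at 0 in every library. The groups in the labels were compared with the study's tabulated group means by matching 181 genes to each of 1820 sets of 4 libraries. Of 16 libraries, 5 fell in the same group by both, and 2 (ND_B12 4 and D_C 1) had the other diabetes status. All 4 libraries labelled D_B12 matched the untreated diabetic means, and 3 of those labelled D_C matched the B12-treated diabetic means, so that the 2 diabetic groups are close to exchanged between the sources. Among the non-diabetic labels, ND_B12 1 matched the ND_C means and ND_C 3 matched the ND_B12 means. Every value below for untreated or B12-treated diabetes, and each direction of B12 in diabetic or non-diabetic kidneys, is therefore that of the labels alone. For the 8 genes, values without ND_B12 4 and D_C 1 are given where they end a call. They are also given where they turn the sign of a fold change printed below or move it by about 1.5 times or more. Some fold changes not printed below also turned sign. Among the pairwise ones, Srebf2 in untreated diabetes went from −0.0445 to 0.0034 on the log2 scale. For B12 in diabetic kidneys Sqle went from 0.064 to −0.105 and Fdps from 0.0044 to −0.13. Sqle in untreated diabetes kept its sign but went from 0.0505 to 0.22. The sample names carried 10 dates, and no date held both groups of a pairwise diabetes comparison or both D_C and D_B12, so date and group cannot be told apart there. A single date held libraries of both diabetes labels, ND_B12 2, ND_B12 3, ND_B12 4 and D_C 1, which include both doubtful libraries. One library, D_C 1, had the lowest count of all 16 for 5 of the 8 genes.

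Cells make cholesterol from acetyl-CoA in a long series of steps. Hmgcs1 acts at the entry of the pathway, before mevalonate is made, and Idi1 and Fdps turn the products of mevalonate into farnesyl pyrophosphate. Sqle then oxidises squalene, Lss closes it into lanosterol, and Cyp51 removes a methyl group from lanosterol on the way to cholesterol. The transcription factor SREBP-2, encoded by Srebf2, switches these genes on when the membranes of the endoplasmic reticulum run low in sterol, and Insig1 holds SREBP-2 and its escort Scap in that membrane when sterol is plentiful. In the kidney, proximal tubule cells also take up filtered lipid carriers through the receptors megalin (Lrp2) and cubilin (Cubn).

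The promoters of Cyp51, Idi1, Insig1 and Hmgcs1 are shown because Cyp51 passed the test, Idi1 was most like it over libraries, the D_C and D_B12 libraries of Insig1 did not overlap and Hmgcs1 held the sterol motif. Each runs from 250 bases before the annotated start of the canonical transcript to 50 bases from it on the gene's own strand, read from GRCm39. The Idi1 window is that of ENSMUST00000240539.1, which took 26.9% of the Idi1 counts, and not of ENSMUST00000169314.9, which starts upstream and took 69.0%. The Cyp51 promoter is chr5:4154697-4154996 (minus strand), that of Idi1 is chr13:8935669-8935968, that of Insig1 is chr5:28276077-28276376 and that of Hmgcs1 is chr13:120151732-120152031 (plus strand for these). Capitals mark 4 letter patterns on either strand. They are TCACNCCAC, which is like the sterol regulatory element, then CCAAT, the box of factor NF-Y, then GGGCGG, the GC box, and last CACGTG, the E-box.
Cyp51: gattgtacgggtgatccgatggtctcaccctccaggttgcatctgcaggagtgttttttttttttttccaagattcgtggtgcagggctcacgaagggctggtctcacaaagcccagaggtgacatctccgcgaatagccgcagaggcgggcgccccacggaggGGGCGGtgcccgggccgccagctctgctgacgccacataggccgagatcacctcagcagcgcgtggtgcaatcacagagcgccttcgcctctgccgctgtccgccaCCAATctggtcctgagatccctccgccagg
Idi1: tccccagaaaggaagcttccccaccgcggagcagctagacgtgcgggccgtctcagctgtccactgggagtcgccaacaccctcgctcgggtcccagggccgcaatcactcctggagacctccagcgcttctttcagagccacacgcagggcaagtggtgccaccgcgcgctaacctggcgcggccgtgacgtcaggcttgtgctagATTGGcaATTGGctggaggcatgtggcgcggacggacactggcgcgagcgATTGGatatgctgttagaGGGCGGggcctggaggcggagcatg
Insig1: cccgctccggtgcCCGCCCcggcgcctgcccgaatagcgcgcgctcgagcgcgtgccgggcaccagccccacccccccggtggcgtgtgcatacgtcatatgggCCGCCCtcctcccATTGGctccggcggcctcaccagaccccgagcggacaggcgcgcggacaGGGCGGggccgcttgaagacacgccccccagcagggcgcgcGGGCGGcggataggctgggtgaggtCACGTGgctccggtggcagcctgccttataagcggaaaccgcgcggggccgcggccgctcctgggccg
Hmgcs1: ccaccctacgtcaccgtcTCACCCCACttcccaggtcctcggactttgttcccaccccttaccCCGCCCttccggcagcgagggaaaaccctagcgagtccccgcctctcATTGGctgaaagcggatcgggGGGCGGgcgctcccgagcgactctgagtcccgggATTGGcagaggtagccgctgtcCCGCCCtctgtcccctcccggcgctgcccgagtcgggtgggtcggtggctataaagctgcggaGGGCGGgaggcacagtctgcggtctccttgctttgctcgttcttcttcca

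CCAAT occurred in the promoters of 8 of the 8 genes and in 39.9% of 21757 mouse promoters of the same length. The GC box was found in 7 of 8 (all but Fdps) against 42.5% of all promoters. The pattern like the sterol element was found in 1 of 8, Hmgcs1, against 1.34%, and the E-box in 1 of 8, Insig1, against 7.82%. The Lss promoter held 1 pair of matches that overlapped, and the others of the 8 held none. These are counts of letters in a short window and are not measured sites.

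Levels between genes were compared as normalized counts (counts divided by a median-of-ratios size factor per library) per kilobase of annotated exon. Over the 16 libraries they averaged 9519 for Hmgcs1, 2887 for Cyp51, 1437 for Idi1, 919 for Insig1, 824 for Srebf2, 721 for Sqle, 198.5 for Fdps and 161 for Lss. Hmgcs1 lay above Cyp51 in every library, and Sqle above Fdps, whereas the ranges of every other pair of neighbours in this order overlapped. The spread over libraries was narrowest for Srebf2, whose highest library was 1.23 times its lowest, and widest for Cyp51 at 2.6 times.

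**Figure D1:**
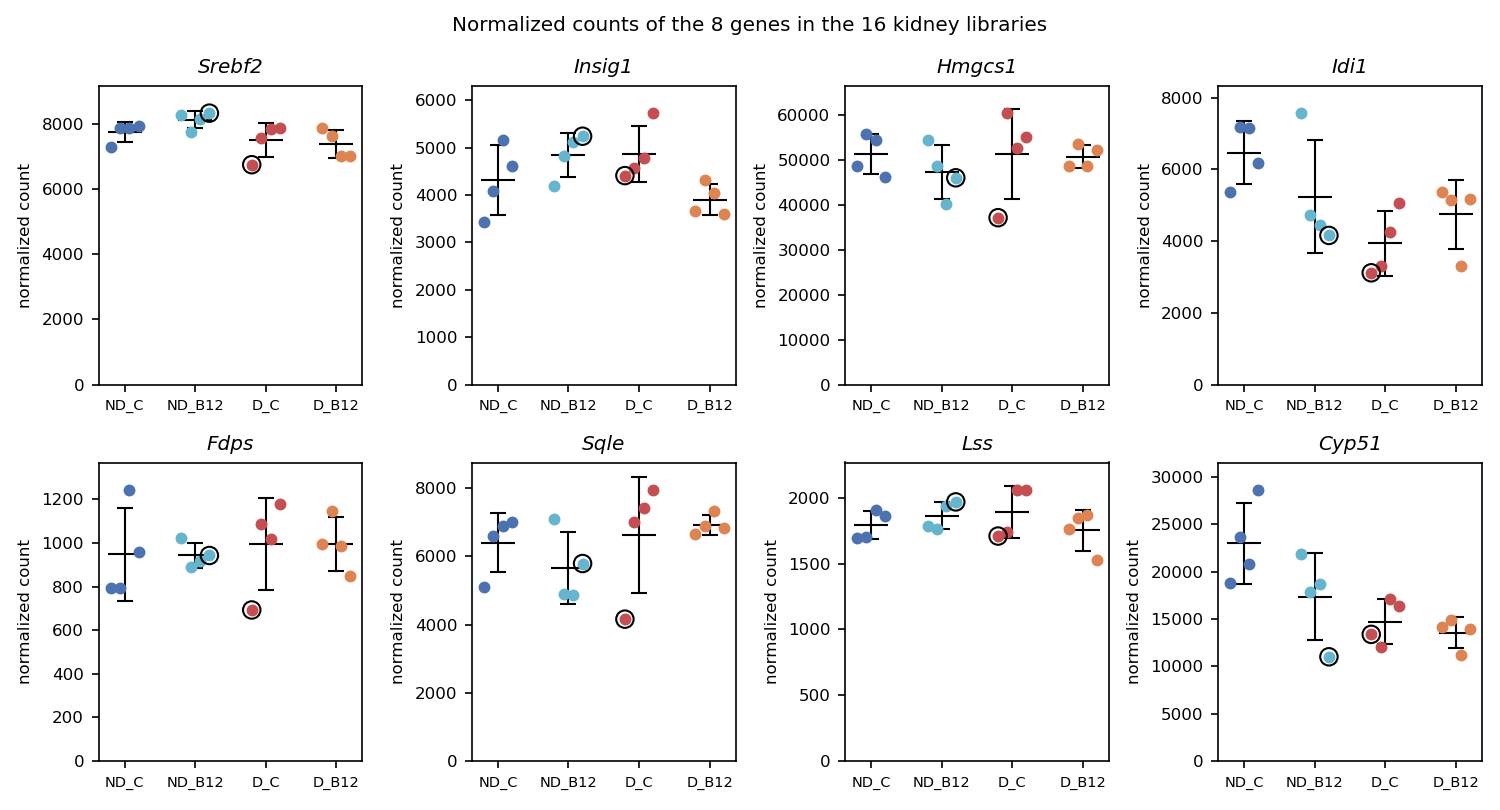
Normalized counts of each gene (vertical axis, from 0) in the 4 labelled groups of 4 libraries (horizontal axis). Points are libraries, bars are the group mean ± SD, and rings mark ND_B12 4 and D_C 1. All 4 D_C points of Cyp51 and of Idi1 lie below the 4 ND_C points, and the ringed ND_B12 library has the lowest Cyp51 count, 11004.

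Cyp51 (ENSMUSG00000001467.6, chr5:4123416-4154751, minus strand) encodes lanosterol 14-alpha-demethylase. Its normalized counts were 18824, 23623, 20836 and 28647 in ND_C and 13370.5, 12041, 17108 and 16351.5 in D_C. They were 21880.4, 17801, 18659 and 11004 in ND_B12 and 14119.6, 14931, 11193 and 13894 in D_B12. The ND_C and D_C libraries did not overlap, and 7 of the 8 non-diabetic libraries lay above every diabetic one. The exception was ND_B12 4, the lowest of all 16, which is 1 of the 2 libraries whose diabetes status is in doubt.

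Means of Cyp51 (± SD, n = 4) were highest in ND_C at 22982 ± 4258 and next in ND_B12 at 17336 ± 4572, while D_C had 14718 ± 2406 and D_B12 had 13534 ± 1623. Averaged over both treatments, diabetic kidneys differed from non-diabetic ones by −0.50 on the log2 scale (SE 0.13, edgeR adjusted p = 0.0437), so that Cyp51 fell by 29.4% on the linear scale. Cyp51 was the 1 gene of the 8 called there, at a rule that called 3.02% of all genes tested, and 3 of 8 (Cyp51, Idi1 and Srebf2) had an unadjusted p below 0.05, as did 19.4% of all genes. All 8 diabetic libraries lay under the median of the 8 non-diabetic ones, a split that was not counted over all genes. Without treatment the log2 value was −0.64 (SE 0.18, edgeR adjusted p = 0.0739, exact permutation p = 0.0286, the smallest that 4 against 4 allows). Under B12 it was −0.36 (SE 0.18, edgeR adjusted p = 0.322), with overlapping groups, and the difference between these 2 effects did not pass the test (0.28, SE 0.25, edgeR adjusted p = 0.634). Without ND_B12 4 and D_C 1 the value under B12 was −0.52 (SE 0.15, edgeR adjusted p = 0.0793) and the difference 0.077 (SE 0.21, edgeR adjusted p = 0.901).

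The Cyp51 call stood close to the threshold. On the date shared by both diabetes labels, Cyp51 was 17801, 18659 and 11004 in the ND_B12 libraries and 13370.5 in D_C 1, so the D_C library lay within their range. The low end of that range is ND_B12 4, whose diabetes status is in doubt, as is that of D_C 1. Beside ND_B12 2 and ND_B12 3 alone, D_C 1 was lower. Without ND_B12 4 and D_C 1 the averaged value was −0.56 (SE 0.11, edgeR adjusted p = 0.00488) and the untreated value −0.60 (SE 0.15, edgeR adjusted p = 0.0278). With the date in the sample name as a covariate the averaged value was −0.68 (SE 0.29, edgeR adjusted p = 0.380), and leaving out single libraries gave adjusted p-values from 0.00648 to 0.0912 in edgeR, with the call kept in 3 of 16 fits, those without ND_C 1, ND_B12 4 or D_C 1. DESeq2 called Cyp51 in both comparisons (adjusted p = 0.0030 averaged and 0.0091 untreated). Summed proximal tubule markers ran from 848100 to 1066000 in D_C and 898700 to 942000 in D_B12, against 967800 to 1042000 in ND_C and 994400 to 1114000 in ND_B12. Of these 6 markers, 1 was higher and 5 were lower with diabetes on average, and 1 was called. The called marker, Slc34a1, the sodium phosphate carrier of these cells, fell by 0.25 on the log2 scale (SE 0.048, edgeR adjusted p = 0.0178). The part of this marker difference in the Cyp51 result was not tested, and in whole kidney fewer cells of a type and less RNA per cell cannot be told apart.

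**Figure D2:**
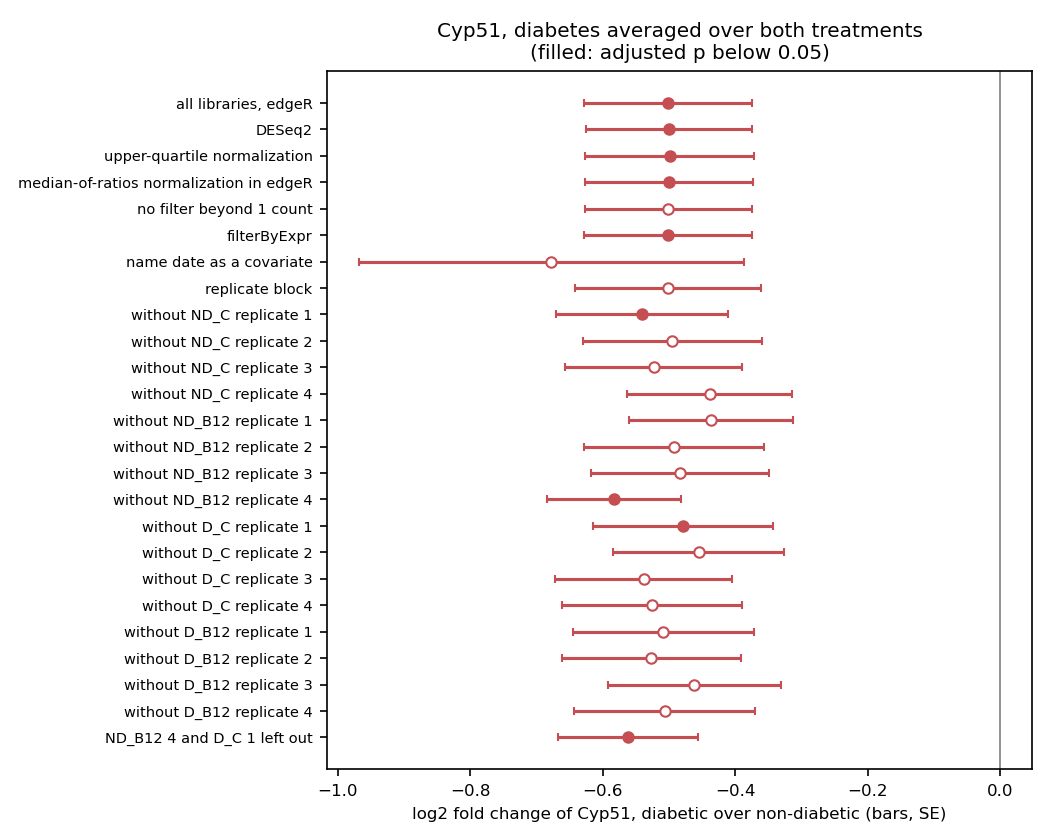
Log2 fold change of Cyp51 in diabetic over non-diabetic kidneys, averaged over both treatments (horizontal axis), under each way of fitting (vertical axis). Bars are the SE and filled points have an adjusted p below 0.05. Every estimate lies below 0, between −0.68 and −0.44, and 3 of the 16 points that leave out 1 library are filled.

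Idi1 (ENSMUSG00000058258.16, chr13:8935537-8942487, plus strand) encodes isopentenyl-diphosphate delta isomerase. Its normalized counts were 5360 in ND_C 1, 7172 in ND_C 2, 7160 in ND_C 3 and 6188 in ND_C 4, against 3117, 3310.4, 4261 and 5070.2 in D_C. The ND_C and D_C libraries did not overlap, as for Cyp51. Among treated mice the counts were 7570.4, 4739.7, 4461 and 4159.9 in ND_B12 and 5372, 5139, 3318 and 5172 in D_B12, and these groups overlapped.

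Mean Idi1 (± SD, n = 4) was 6470.1 ± 872 in ND_C against 3939.7 ± 904.5 in D_C, and 5233 ± 1576 in ND_B12 against 4750.2 ± 960.0 in D_B12. On the log2 scale diabetes differed by −0.72 without treatment (SE 0.20, edgeR adjusted p = 0.0739, exact permutation p = 0.0286) and by −0.14 under B12 (SE 0.20, edgeR adjusted p = 0.767). Averaged, it was −0.43 (SE 0.14, edgeR adjusted p = 0.103), and the interaction was 0.57 (SE 0.28, edgeR adjusted p = 0.332). DESeq2 called the untreated and averaged values (adjusted p = 0.00869 and 0.0319). Without ND_B12 4 and D_C 1 the untreated value was −0.62 (SE 0.21, edgeR adjusted p = 0.0806), the value under B12 −0.24 (SE 0.20, edgeR adjusted p = 0.593) and the interaction 0.38 (SE 0.29, edgeR adjusted p = 0.558). Of 16 fits that left out 1 library, edgeR called the untreated value in 1, that without ND_B12 1, which is in neither compared group. The edgeR adjusted p over the 16 ran from 0.0408 to 0.184. With the date as a covariate the untreated value was −0.79 (edgeR adjusted p = 0.346) and the averaged value −0.53 (edgeR adjusted p = 0.565).

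In untreated diabetes edgeR called 0 of the 8 genes at a rule that called 1.66% of all genes, and DESeq2 called 2 of 8, Idi1 and Cyp51, at a rule that called 6.45%. The same 2 genes were those with an unadjusted p below 0.05 in edgeR, a level reached by 18.6% of all genes. They were also the 2 of 8 whose ND_C and D_C libraries did not overlap, which held for 9.44% of all genes. DESeq2 called these 2 of 8 in the averaged comparison too, where it called 7.24% of all genes.

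Idi1 counts were split between transcripts, by the authors' estimates per transcript. ENSMUST00000169314.9, which starts at base 8935537, took 96.1, 67.7, 80.3 and 97.3% of the Idi1 counts in ND_C, 39, 84.5, 96.9 and 77.8% in ND_B12, 97.4, 93.2, 74.8 and 32.0% in D_C, and 57.9, 49.0, 32.9 and 50.1% in D_B12. Most of the rest lay on ENSMUST00000240539.1, which starts at base 8935919 and took from 1.41% of the counts in an ND_C library to 67.0% in a D_B12 library. The shares on the first transcript overlapped between the groups in every pairwise comparison of diabetes or of B12. The 2 transcripts overlap for most of their length, so their split is less certain than the gene total. Cyp51, Insig1, Sqle, Hmgcs1 and Srebf2 were carried mainly by 1 transcript each, at 99.9, 99.3, 94.6, 90.7 and 89.2% of their counts.

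Hmgcs1 (ENSMUSG00000093930.3, chr13:120151915-120170470), the cytosolic HMG-CoA synthase at the entry of the pathway, had 48718, 55727, 54362 and 46228 normalized counts in ND_C and 37125, 60381, 52721.5 and 55017 in D_C. Counts were 54495, 48535, 40169 and 45994 in ND_B12 and 48567, 53412, 48646 and 52212 in D_B12. The groups overlapped in every comparison, and D_C held both the lowest and the highest library. The log2 value of diabetes was 0.0014 without treatment (SE 0.12, edgeR adjusted p = 0.998) and 0.098 under B12 (SE 0.12, edgeR adjusted p = 0.737). Without ND_B12 4 and D_C 1 the untreated value was 0.13 (SE 0.095, edgeR adjusted p = 0.445).

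Fdps (ENSMUSG00000059743.13, chr3:89000888-89019213, minus strand), which makes farnesyl pyrophosphate, was the lowest-counted gene of the 8, with library values from 693 to 1245. Its means (± SD, n = 4) were 948 ± 213 in ND_C against 995 ± 212 in D_C, and 944 ± 57.8 in ND_B12 against 996 ± 123 in D_B12, and the groups overlapped in all 4 pairwise comparisons. The averaged log2 fold change of diabetes was 0.072 (SE 0.11, edgeR adjusted p = 0.784), and 0.14 without ND_B12 4 and D_C 1 (SE 0.10, edgeR adjusted p = 0.441). Fdps was split between 2 coding transcripts with the same ends, which took 77.0 and 18.6% of its counts by the authors' estimates.

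Sqle (ENSMUSG00000022351.15, chr15:59186869-59203043), squalene epoxidase, had 5117, 6603, 6890.1 and 7007 normalized counts in ND_C and 4161, 7019, 7406 and 7958 in D_C. Treated kidneys had 7091, 4893.5, 4869.8 and 5791 in ND_B12 and 6650.5, 6885.5, 7336 and 6839.6 in D_B12. Its D_B12 libraries were close together, and D_C 1 stood far under the other D_C libraries. The averaged log2 fold change of diabetes was 0.17 (SE 0.12, edgeR adjusted p = 0.462), opposite in sign to that of Cyp51, and 0.26 without ND_B12 4 and D_C 1 (SE 0.090, edgeR adjusted p = 0.0864). With the date as a covariate it was −0.23 (edgeR adjusted p = 0.772).

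Lss (ENSMUSG00000033105.13, chr10:76367298-76392976), lanosterol synthase, ran from 1527 to 2061 normalized counts, and its groups overlapped in all pairwise comparisons. Its averaged log2 fold change of diabetes was −0.0069 (SE 0.059, edgeR adjusted p = 0.965), and 0.031 without ND_B12 4 and D_C 1 (SE 0.060, edgeR adjusted p = 0.817). By the authors' estimates its main protein-coding transcript, ENSMUST00000048678.7, took 34.7% of its counts, and a retained-intron transcript, ENSMUST00000160671.8, took 45.1%.

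Srebf2 (ENSMUSG00000022463.9, chr15:82031382-82093201) had 7299, 7879, 7892.5 and 7945 normalized counts in ND_C and 8283, 7762, 8163 and 8339 in ND_B12. The diabetic libraries had 6755, 7586, 7863 and 7872.5 in D_C and 7877, 7626, 7010.3 and 7034 in D_B12. All 8 diabetic libraries lay below the non-diabetic median, and 6 of 8 non-diabetic libraries lay above every diabetic one. How many of all genes had such a split was not counted. The averaged log2 fold change was nevertheless small at −0.093 (SE 0.042, edgeR adjusted p = 0.236), and it was −0.062 without ND_B12 4 and D_C 1 (edgeR adjusted p = 0.361).

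Insig1 (ENSMUSG00000045294.12, chr5:28276315-28283668), itself a target of SREBP-2, had 3431, 4094.5, 5159 and 4606 normalized counts in ND_C and 4198, 4830.0, 5130 and 5243 in ND_B12. In diabetic kidneys it had 4411, 4570.4, 4791 and 5730.0 in D_C and 3670.3, 4311, 4038 and 3594 in D_B12. Every D_B12 library lay below every D_C library, which held for 1 of the 8 genes and for 6.58% of all genes in this comparison. Set against D_C, the D_B12 libraries differed by −0.32 on the log2 scale (SE 0.12, edgeR adjusted p = 0.239, exact permutation p = 0.0286). The log2 value of diabetes was 0.17 without treatment (SE 0.12, edgeR adjusted p = 0.456) and −0.32 under B12 (SE 0.12, edgeR adjusted p = 0.175), and the interaction was −0.49 (SE 0.16, edgeR adjusted p = 0.163). None of these passed the test, and their directions rest on labels that the study's group means do not share. Without ND_B12 4 and D_C 1 the B12 value was −0.36 (SE 0.12, edgeR adjusted p = 0.156).

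For B12, edgeR called 0 of the 8 genes in non-diabetic kidneys, 0 in diabetic kidneys and 0 on average, where it called 0.0% of all genes each time. At an unadjusted p below 0.05 the counts were 1 of 8 in non-diabetic kidneys (Cyp51, −0.40, SE 0.18, edgeR adjusted p = 0.637), 1 of 8 in diabetic kidneys (Insig1) and 0 on average, against 7.62, 13.6 and 5.2% of all genes. Without ND_B12 4 and D_C 1 the Cyp51 value for B12 in non-diabetic kidneys was −0.24 (SE 0.15, edgeR adjusted p = 0.978) and its unadjusted p was no longer below 0.05. DESeq2 called 0 of the 8 in each of the 3, where it called 0.0236, 2.64 and 0.0236% of all genes. The interaction had 0 of 8 calls in edgeR (0.0% of all genes) and in DESeq2 (3.71%), with 1 of 8, Insig1, at an unadjusted p below 0.05 in edgeR (16.1%). In B12-treated diabetes both tools called 0 of 8, at 0.823% of all genes in edgeR and 4.68% in DESeq2, and 2 of 8, Srebf2 and Insig1, had an unadjusted p below 0.05 in edgeR (17.0%). No gene of the 8 had groups that did not overlap in B12-treated diabetes (0 of 8, 11.7% of all genes) or for B12 in non-diabetic kidneys (0 of 8, 4.81%).

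**Figure D3:**
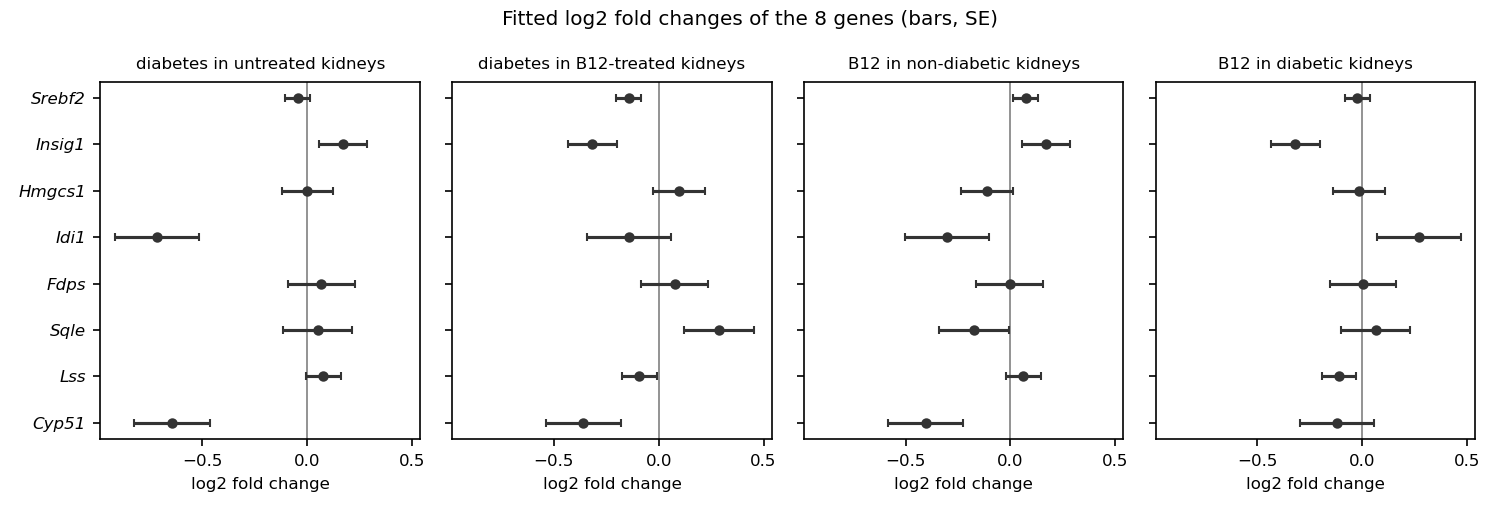
Log2 fold change of each gene (horizontal axis) in the 4 pairwise comparisons of labelled groups (panels), with SE bars from the edgeR fit of all 16 libraries. Idi1 and Cyp51 lie far below 0 in untreated diabetes, at −0.72 and −0.64, while Hmgcs1, Fdps, Sqle, Lss and Srebf2 lie within 0.29 of 0 in every panel. The signs of Srebf2 in untreated diabetes and of Sqle and Fdps for B12 in diabetic kidneys turn without ND_B12 4 and D_C 1.

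The comparisons share groups, so their values for one gene are not independent. The expression of the 8 genes was also set side by side over libraries, as deviations of log2 CPM from the group mean. All 28 pairs of genes had r above 0 (range 0.034 to 0.772, median 0.483, 16 libraries), and 10 exceeded 0.6. The highest were Hmgcs1 with Sqle (r = 0.772, rho = 0.641), Fdps with Sqle (r = 0.746, rho = 0.744) and Insig1 with Lss (r = 0.742, rho = 0.741). Cyp51 was most like Idi1 (r = 0.685, rho = 0.656) and least like Insig1 (r = 0.034, rho = 0.179). Leaving out the 2 libraries farthest from the median lowered Hmgcs1 with Sqle to 0.465 and left Insig1 with Lss at 0.765. Without D_C 1 and ND_B12 4 the median of the 28 was 0.413, 25 were above 0 and 5 exceeded 0.6. The points share libraries, depth and size factors, and D_C 1 was low for many of the genes.

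**Figure D4:**
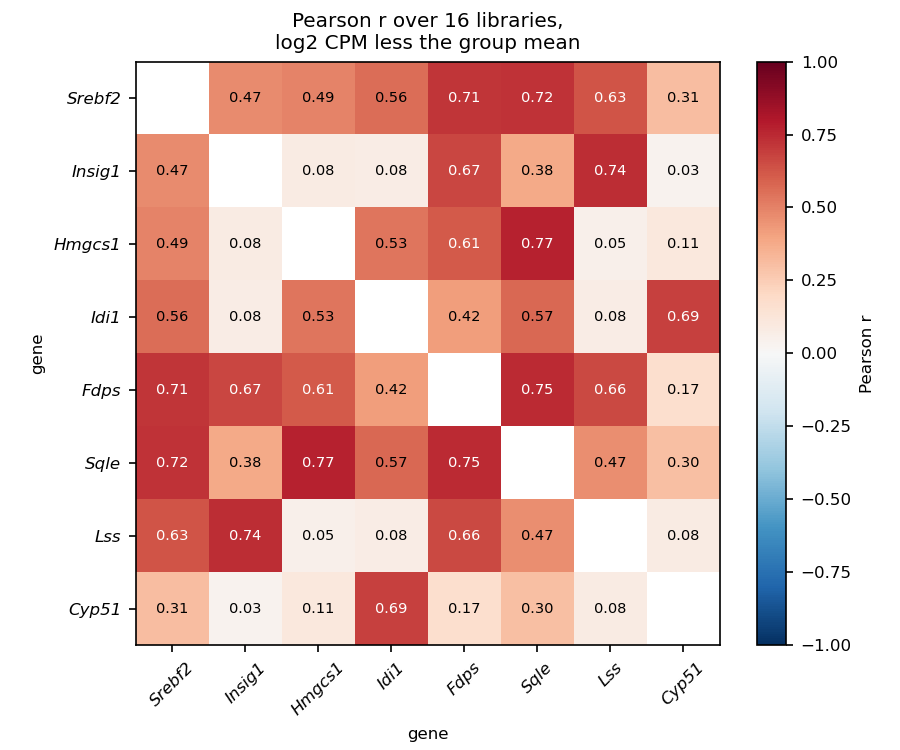
Pearson r of each pair of the 8 genes over 16 libraries, from log2 CPM less the group mean (colour scale from −1 to 1, values printed). Sqle has values from 0.298 to 0.772 with the other genes, and Cyp51 exceeds 0.6 with Idi1 alone.

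Of 13904 other genes with a mean log2 CPM of at least 1, the 10 most like the mean profile of the 8 genes over the 16 libraries were Tmem62, Rab2a, Ran, Irak1, Otud6b, Msmo1, Babam1, Eif4g2, Umad1 and Ccna2, with r from 0.911 for Tmem62 to 0.870 for Ccna2. Msmo1, the sterol C4-methyl oxidase that follows Cyp51 in the pathway, ranked 6 with r = 0.892. Among 58 other pathway genes ranked, 22.4% were in the first 1000, which held 7.19% of the genes ranked. Each of the 8 genes had r between 0.516 and 0.873 with the profile that it was part of.

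The wider pathway was described with 65 other genes, of which 63 passed the count minimum and the remaining 2, Npc1l1 and Abcg5, did not. In untreated diabetes edgeR called 3 of the 63 (1.66% of all genes), DESeq2 called 6 (6.45%) and 13 had an unadjusted p below 0.05 (18.6%). Averaged over both treatments edgeR called 2 (3.02%), DESeq2 called 9 (7.24%) and 17 had an unadjusted p below 0.05 (19.4%). EdgeR called 0 in every other comparison. DESeq2 there called 5 in B12-treated diabetes (4.68% of all genes), 1 for B12 in diabetic kidneys (2.64%), 1 in the interaction (3.71%) and 0 for B12 in non-diabetic kidneys and on average (0.0236% each). In the same order, 14 (17.0%), 9 (13.6%), 14 (16.1%), 4 (7.62%) and 1 (5.2%) had an unadjusted p below 0.05 in edgeR. Among 17 other enzymes of the mevalonate and sterol steps, 15 were lower and 2 higher in diabetes on average, with a median log2 fold change of −0.088 beside 0.0072 over all genes, and 1 was called.

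Mvd, which makes isopentenyl pyrophosphate, was at −0.18 on the log2 scale on average (edgeR adjusted p = 0.0690) and Nsdhl at −0.11 (0.344). Msmo1 was at −0.046 (edgeR adjusted p = 0.889), Dhcr7 at −0.052 (0.788) and Fdft1, squalene synthase, at 0.15 (0.377). The enzymes did not share 1 size of difference, since Cyp51 lay at −0.50 while Hmgcs1, Sqle and Lss lay between −0.0069 and 0.17.

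Of 13 genes that control SREBP, 6 were higher and 7 lower in diabetes on average (median −0.017), and edgeR called 0, with 5 at an unadjusted p below 0.05 (19.4% of all genes) and 3 called by DESeq2 (7.24%). In untreated diabetes 1 was called, Erlin1, a protein of the endoplasmic reticulum that takes part in protein degradation there. Erlin1 had 7146, 6815, 6720.2 and 6086 normalized counts in ND_C and 4694, 4996, 4740.3 and 4943 in D_C, without overlap, and fell by 0.47 on the log2 scale (SE 0.11, edgeR adjusted p = 0.0460). With the date as a covariate it was −0.22 (edgeR adjusted p = 0.625). The Erlin1 call held in 7 of 16 fits that left out 1 library (edgeR adjusted p from 0.0316 to 0.122) and was lost without any 1 of ND_C 1, 2 or 3, ND_B12 2 or 3, D_C 2, 3 or 4, or D_B12 2. Scap, the escort of SREBP-2, was at 0.078 on average (edgeR adjusted p = 0.509), Srebf1 at −0.19 (0.356), Insig2 at 0.030 (0.839) and the sterol carrier Stard4 at −0.20 (0.164).

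Among 14 tested genes of uptake and lysosomal release, 6 were higher and 8 lower in diabetes on average (median −0.040), and 1 was called. Lrp1, an endocytic receptor that binds apolipoprotein E among other ligands, rose by 0.32 on the log2 scale (SE 0.070, edgeR adjusted p = 0.0265) and by 0.42 in untreated kidneys (SE 0.10, edgeR adjusted p = 0.047). Its normalized counts were 10932, 9035, 9674 and 10369 in ND_C and 11842, 13103, 15612 and 12947 in D_C, again without overlap. The averaged Lrp1 call held in 10 of 16 fits that left out 1 library (edgeR adjusted p from 0.00832 to 0.0619) and was lost without any 1 of ND_C 2 or 3, ND_B12 1, 2 or 3, or D_B12 3. The untreated call held in 5 of 16, those without ND_B12 1 or 4, D_C 1, or D_B12 1 or 4 (edgeR adjusted p from 0.0189 to 0.146 over the 16). With the date as a covariate the adjusted p in edgeR was 0.428 on average and 0.275 in untreated kidneys. Mylip, a ubiquitin ligase that acts on lipoprotein receptors, was at 0.078 on average (edgeR adjusted p = 0.909). Megalin (Lrp2) was at −0.14 (edgeR adjusted p = 0.433), Cubn at −0.026 (0.916) and the lysosomal cholesterol exporter Npc1 at 0.0018 (0.990).

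Of 12 tested genes of efflux, esterification and oxysterols, 5 were higher and 7 lower in diabetes on average (median −0.025). In untreated diabetes 10 were higher (median 0.247 beside −0.0034 over all genes). In B12-treated diabetes 3 were higher and 9 lower (median −0.232 beside 0.0027). With B12 in diabetic kidneys 9 were lower (median −0.229 beside −0.00044), and edgeR called 0 in each of these comparisons. These directions and medians rest in part on genes with few counts. Soat2 and Abcg8 had 107 and 168 counts over all 16 libraries, with some libraries at 0. Ch25h, Cyp46a1 and Apoa1 had 1036, 1267 and 1428. All of these low-count genes had a higher mean in D_C than in ND_C. Abcg1, an exporter of cholesterol, was at 0.57 in untreated diabetes (SE 0.18, edgeR adjusted p = 0.114) and at −0.63 in D_B12 against D_C (SE 0.18, edgeR adjusted p = 0.154). Abca1 was at 0.33 (edgeR adjusted p = 0.364) and −0.33 (0.464) in the same comparisons, which share the D_C libraries, and Soat1, which esterifies cholesterol, at −0.061 (0.736) and −0.20 (0.255). At an unadjusted p below 0.05 the list of 12 had 2 genes in untreated diabetes (18.6% of all genes) and 3 with B12 in diabetic kidneys (13.6%), and DESeq2 called 1 in each (6.45 and 2.64% of all genes). The 7 genes of the isoprenoid branches had 0 calls in every comparison in edgeR and in DESeq2, with 1 at an unadjusted p below 0.05 in untreated diabetes, 1 in the interaction and 0 elsewhere.

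**Figure D5:**
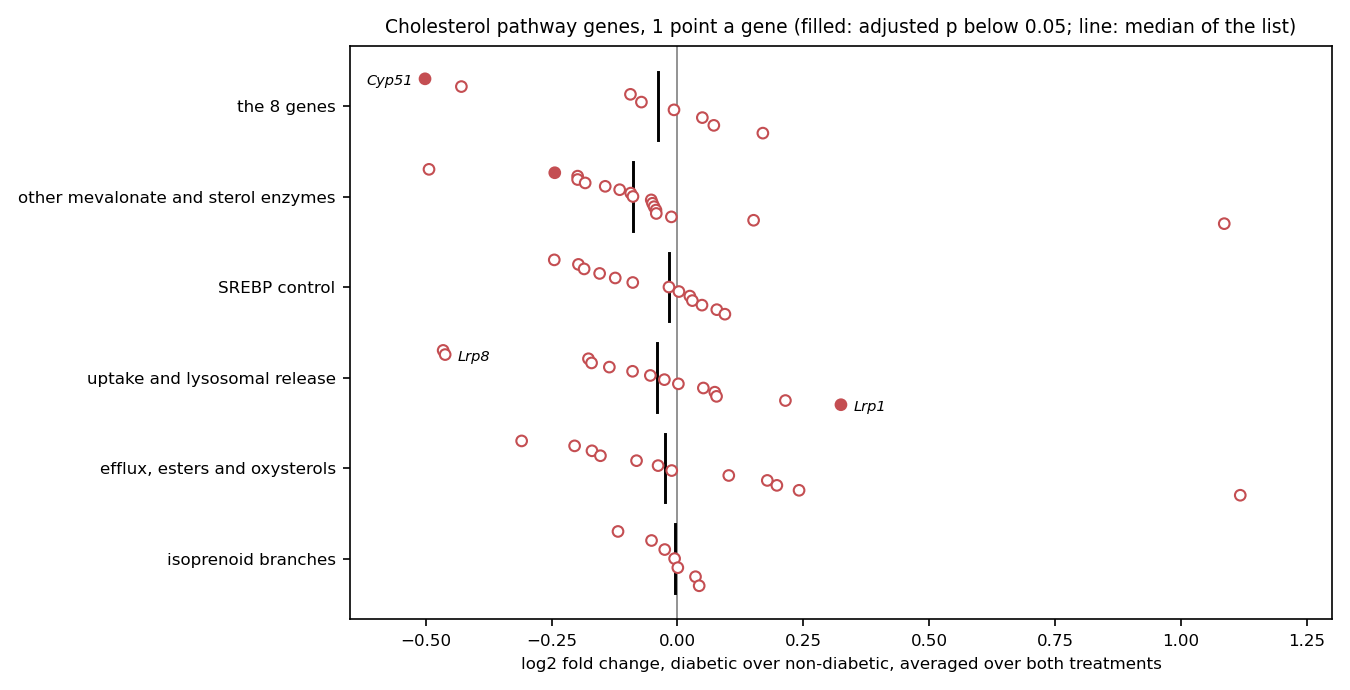
Log2 fold change of diabetic over non-diabetic kidneys, averaged over both treatments (horizontal axis), for the 8 genes and 63 other genes of the pathway in 5 lists (vertical axis). Each point is a gene, filled points have an edgeR adjusted p below 0.05 and black lines are list medians. Cyp51, at −0.50, and Lrp1, at 0.32, are among the filled points.

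Markers of other cell types also differed between libraries. Summed collecting duct markers were 7818 to 11020 in ND_C and 12950 to 30900 in D_C. They were 7938 to 17170 in ND_B12 and 10410 to 24000 in D_B12. Aqp2, the water channel among them, rose with diabetes in untreated kidneys by 1.69 on the log2 scale (SE 0.39, edgeR adjusted p = 0.0436). Its mean was 5921 in ND_C and 19109 in D_C, against 2058 and 2326 for Scnn1g and 1475 and 1588 for Atp6v1g3. In B12-treated diabetes 1 of the 3 collecting duct markers was higher and 2 were lower. Summed macrophage markers were 4747 to 5548 in ND_C against 3655 to 4805 in D_C, and 3325 to 5440 in ND_B12 against 3408 to 3616 in D_B12, and C1qa, a complement gene among them, fell by 0.47 on the log2 scale with diabetes on average (edgeR adjusted p = 0.0382). Adipocyte markers ranged from 258.8 to 6207 over all libraries, with wide overlap of the groups. Endothelial markers were 12670 to 14400 in ND_C against 15950 to 18480 in D_C, and 14690 to 17340 in ND_B12 against 13930 to 16560 in D_B12. Thick ascending limb markers were 223800 to 304600 in D_C and 166500 to 197900 in D_B12, which did not overlap, with 230600 to 280700 in ND_C and 190900 to 290700 in ND_B12. Podocyte markers ran from 4703 to 7814, distal tubule markers from 54660 to 81200 and genes typical of liver from 49620 to 104100. Of 4 liver genes, 3 were higher and 1 lower with diabetes on average, and the lower one, Ttr, was the 1 called (it fell by 1.04 on the log2 scale, edgeR adjusted p = 0.0194). The 7 adrenal markers summed to between 311 and 564, and 5 of them were under the count minimum. A list of 10 clock genes summed to 38520 to 42820 in D_C and 33150 to 36710 in D_B12, the comparison in which Insig1 did not overlap. That sum mixes opposite directions, since mean Bmal1 was 266 in D_C and 800.0 in D_B12 (log2 difference 1.59, edgeR adjusted p = 0.151), whereas mean Dbp was 5885 and 2486 (−1.24, edgeR adjusted p = 0.151). The part of these differences in the results for the 8 genes was not tested.

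Several of the genes overlap others. Cyp51 overlaps Akap9 on the other strand, Sqle overlaps Washc5, Hmgcs1 overlaps Nim1k and Srebf2 holds Mir33 on its own strand, and the sources used here give strand only as read from intron motifs at alignment, which bears on spliced reads, and do not give a strand setting for the counts used.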

How the data were processed

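Kidney total RNA of 16 mice was sequenced as paired 50 bp reads. According to the methods and the processing notes, reads were demultiplexed with bcl2fastq 2.20.0, aligned to GRCm39 with STAR and assigned to GENCODE transcripts with StringTie. The authors deposited estimated counts per gene and per transcript, not normalized, which were rounded to whole numbers here. Estimated counts divide reads between overlapping transcripts, so transcript shares are less certain than gene totals.

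Genes whose 16 counts summed to 100 or more were tested with edgeR 4.0.16 (R 4.3.3), with TMM size factors, quasi-likelihood tests over 4 groups and Benjamini-Hochberg adjustment over 25408 genes at 0.05. Single genes were also compared with two-sided exact permutation tests on log2 normalized counts (median-of-ratios size factors). Correlations between libraries and between genes used log2 CPM (prior count 2). DESeq2 1.42.0, other normalizations and filters, a date covariate, a replicate block, leaving out libraries and fitting the compared groups alone were the alternatives. The scripts were tested on simulated data.

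Groups came from the labels. The 8 genes, the pathway lists and the marker lists were chosen with earlier results of these data known, and so support nothing by having been chosen. The genes named were the 8, a list of pathway genes chosen by role, every listed gene that passed a test, and the 10 most like the 8 in profile, except that some pathway genes are not reported here. Library totals were 65271308 or more, so for the 8 genes sampling noise was small beside the spread between mice. This does not hold for listed genes with few counts, such as Soat2 and Abcg8. Promoters and exon lengths were read from GRCm39 and the GENCODE annotation given with it, which is a later release than that of the counts. Columns that held the study's own comparisons were not used, other than group means for the check of the labels.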

Additional observations from a re-analysis of the deposited data

Results flagged for a closer look

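Of 32 sets of 4 libraries (8 genes in 4 groups), 3 held a library whose distance from its nearest neighbour, as a share of the range of its group, was above Dixon's 95% critical value for 4 samples, a limit that chance passes in about 1 of 20 groups. Srebf2 in ND_C 1 was low, at 7299 normalized counts beside 7879 to 7945 in the other ND_C libraries, with a share of 0.898. Idi1 in ND_B12 1 was high, at 7570.4 beside 4159.9 to 4739.7, with a share of 0.83. That library matched the study's ND_C means and not its ND_B12 means. Idi1 in D_B12 3 was low, at 3318 beside 5139 to 5372, with a share of 0.887. No difference between the effects of diabetes in treated and untreated kidneys passed the test for any of the 8 genes (smallest edgeR adjusted p = 0.163, for Insig1).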

How the results depend on the processing

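In untreated diabetes edgeR called 0 of the 8 genes, DESeq2 called 2, and edgeR called 1 with ND_B12 4 and D_C 1 left out. In the averaged comparison edgeR called 1, DESeq2 called 2, and edgeR called 0 with no filter beyond 1 count, 0 with the date covariate and 0 with a replicate block. Leaving out 1 library at a time gave between 0 and 1 called genes in both comparisons. The other 5 comparisons gave 0 calls among the 8 under each alternative run. Of 1376 values of the 8 genes under alternatives, 16 lost a call, 6 gained one and 0 were called with the other sign, and uncalled values took the other sign 91 times. Replicate numbers did not pair the samples (16 pairs, r from −0.242 to 0.208), so the block stands only here. Over all genes, the counts called in untreated, B12-treated and averaged diabetes were 423, 209 and 767, against 1637, 1189 and 1837 in DESeq2, 2087, 684 and 2495 without both libraries, 2, 29 and 0 with the date, and 269, 25 and 478 with the block. For B12 in diabetic kidneys and the interaction edgeR called 0 and 0, against 670 and 943 in DESeq2, 214 and 83 without both libraries, 204 and 753 with the date, and 0 and 147 with the block. The cause of these shifts was not tested. Of the 10 genes most like the profile of the 8, 2 remained in the first 10 by Spearman rank and 2 without centring on groups. With 4 mice a group, small differences may be missed whatever the depth.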
